A study of Mus musculus with 6 samples.

Results

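Glucose uptake and glycolysis were examined through 31 named genes, namely 6 glucose transporters, 4 hexokinases, 3 phosphofructokinases, the 4 enzymes that make and break down fructose 2,6-bisphosphate, and 14 others that cover the remaining steps down to pyruvate and an enzyme that uses ADP to phosphorylate glucose. They were found by their symbols among the 24470 rows of the count table. All 31 had a row, and 30 of them passed the filter on low counts, out of 15577 genes that did. The exception was Hkdc1, a hexokinase-like gene with 1 to 10 counts per sample.

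The samples were labelled as whole testes of E12.5 mouse embryos (the stage at which testis cords form), 3 control and 3 Ppp1r3c cKO (conditional knockout). Both groups carried Ppp1r3c f/f, that is, floxed alleles of the gene for a protein phosphatase 1 subunit that promotes glycogen synthesis. The cKO embryos also carried Sf1-Cre, a Cre recombinase under Nr5a1 (Sf1) control that acts in somatic cells of the gonad and not in germ cells, so the controls were floxed animals without Cre. The tissue of 2 gonad pairs was combined for every sample, so single embryos cannot be told apart. No other treatment or stage entered the comparison.

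Glycolysis splits glucose into pyruvate and yields ATP without oxygen. Transporters of the Slc2a (GLUT) family let glucose in, hexokinases trap it as glucose 6-phosphate, and phosphofructokinase commits it to breakdown. Most steps have several enzymes encoded by paralogous genes, termed isoforms here, and tissues differ in which one they use. Glycogen enters the same route at glucose 6-phosphate. In the testis, Sertoli cells are known for glycolysis that ends in lactate, which germ cells take up.

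Library totals ranged from 16139487 to 44145158 counts, with control replicate 1 the shallowest, and are raw reads per gene. Ppp1r3c itself was at 24.4, 22.1 and 22.9 CPM (reads of a gene per fixed number of reads in the library, after TMM scaling) in control replicates 1 to 3 and at 4.71, 5.37 and 5.96 CPM in the cKO replicates. Its log2 fold change was -2.11 (SE 0.111, edgeR FDR 0.000126), so the library labels held for the targeted gene. cKO replicate 3 stood apart from the other 5 libraries. Xist, the RNA of the inactive X chromosome, was at 379 CPM there and at 0.369 to 1.0 CPM elsewhere, and the pre-granulosa cell genes Fst and Foxl2 were at 50.9 and 7.56 CPM against no more than 2.02 and 1.22 CPM elsewhere. The 10 pre-granulosa markers were at a mean log2 difference of 1.68 from the control mean there and at -0.12 to 0.18 elsewhere. The 4 Y-linked genes checked summed to 220 CPM in this sample and to 258 to 277 CPM in the others. Whether other tissue was in that pool was not tested. Values without that sample are therefore also given below for some of the glycolytic genes. Sertoli cell markers were present at a summed 2645 to 3264 CPM in every sample. Of these 14 markers, 8 lay above and 6 below 0 (median log2 fold change 0.10). At an unadjusted edgeR p under 0.05 were 4 higher (Sox9, Wt1, Inhbb and Gata4) and 0 lower, against 5.56% higher and 5.80% lower over all genes. Of the 14, 0 were called by edgeR and 1 by DESeq2. The latter was Wt1, a transcription factor gene of the somatic gonad (log2 fold change 0.28, SE 0.074, edgeR p 0.00407, DESeq2 adjusted p 0.0484). Sox9, a gene of Sertoli cell differentiation, gave 0.28 (SE 0.092, edgeR p 0.0125). The values of Wt1 and Sox9 were of the size of those of Pfkl and Tpi1 below. The 6 markers below 0 were Amh (-0.08), Dhh (-0.09), Dmrt1 (-0.17), Ptgds (-0.27), Cst9 (-0.18) and Aard (-0.09). In cKO replicate 3, Wt1 and Gata4 were at their highest (449 and 637 CPM). Sox9 and Inhbb were at their lowest of the cKO samples there (175 and 268 CPM). The part of Sertoli cell number or content in the glycolytic values was not tested. Germ cell markers were lower in cKO testes, with 16 of 16 below control (median log2 fold change -0.85). All 16 were at an unadjusted edgeR p under 0.05, against 5.80% lower over all genes, with 0 called by edgeR and 2 by DESeq2. Dppa3, a germ cell gene and the one of lowest p, gave -1.24 (SE 0.271, edgeR p 0.00120). In whole testes, fewer cells of a type and less RNA per cell cannot be told apart. The labels do not say whether the pools came from separate litters, and p-values measure only the spread between these samples.

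At this sample size edgeR called none of the 30 tested genes at an FDR of 0.05, where it called 0.0385% of all genes (0.0321% higher). DESeq2 called 2 of the 30, Eno1 (adjusted p 0.0481) and Pfkl (adjusted p 0.0498), both higher in cKO testes, against 0.733% of all 15008 genes with an adjusted p (0.373% higher). At an unadjusted edgeR p under 0.05 there were 6 of 30, namely Pfkl, Eno1, Tpi1, Aldoa and Aldoc higher and Pfkp lower, against 11.4% of all genes (5.56% higher and 5.80% lower). The fitted value lay above 0 for 22 of the 30 (73.3%) against 49.1% of all genes. The median log2 fold change was 0.09, against -0.0034 over all genes tested, and the extremes were -0.51 for Hk3 and 0.51 for Aldoc, both of which moved with single samples as given below. The 3 control and 3 cKO values did not overlap for 5 of the 30, all higher in cKO testes (Hk1, Hk2, Pfkl, Pfkfb4 and Aldoa), against 15.6% of all genes in either direction (8.42% higher and 7.17% lower). Most differences were small. Together the 31 genes held 0.439%, 0.494% and 0.435% of the counts in control replicates 1 to 3, and 0.520%, 0.463% and 0.535% in the cKO replicates. cKO replicate 2 lay below control replicate 2 in that share, so the groups overlapped.

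**Figure D1:**
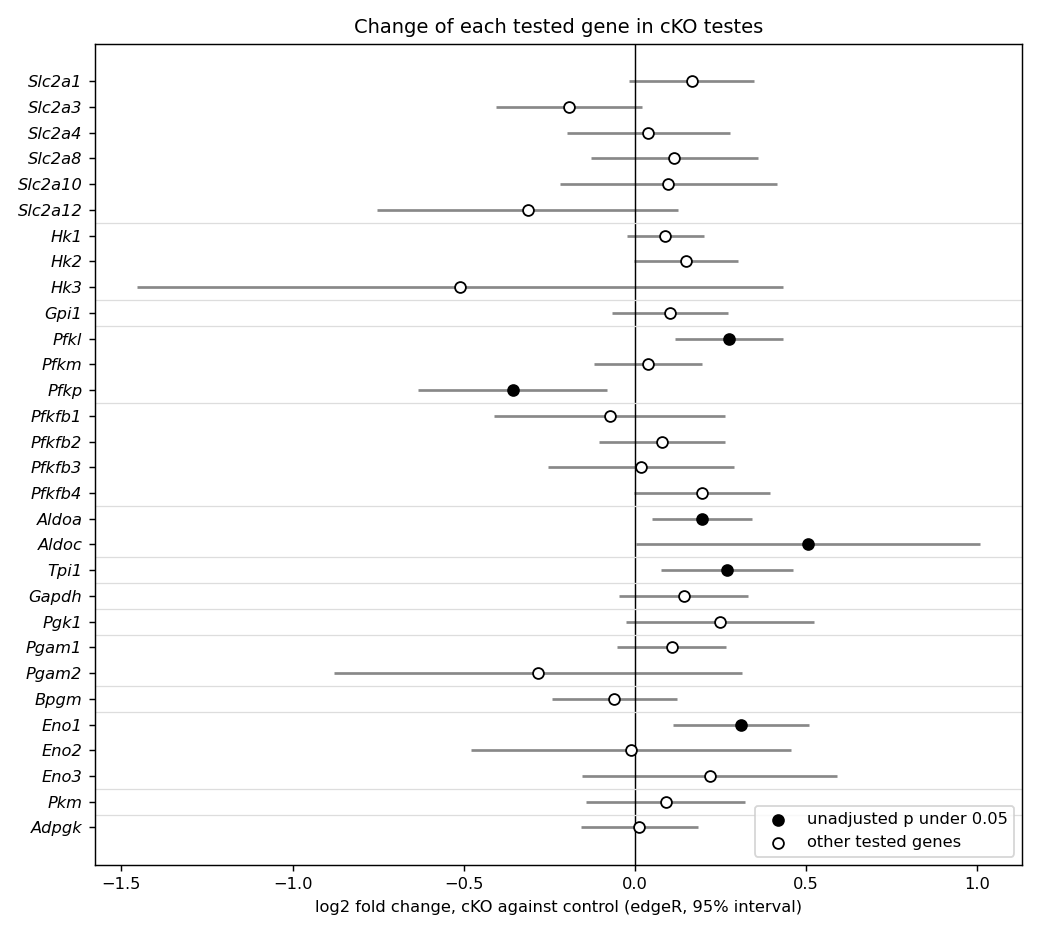
Log2 fold change of cKO against control (horizontal axis) with its 95% interval from edgeR for each of the 30 tested genes, ordered from uptake to pyruvate kinase, with Adpgk last. Filled points mark an unadjusted p under 0.05. 5 of the 6 filled points lie to the right of 0, and Pfkp lies to the left.

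Before the single steps, levels are compared per length, as CPM per kilobase of exon averaged over all 6 samples. Gapdh led with 675 CPM per kilobase, the 43rd highest of 15119 genes with a length. Pkm followed with 372, Aldoa with 320 and Eno1 with 306 CPM per kilobase. These 4 exceeded the level that 1% of genes exceed (266 CPM per kilobase). Tpi1 stood at 164, Gpi1 at 98.95, Pgk1 at 76.0 and Pgam1 at 59.9 CPM per kilobase, and with them 8 genes lay in the top 10% of all genes (above 46.3). Those 8 enzymes made up 88.7% to 90.2% of the summed level of the 31 genes in a sample. Among neighbours in this order, the sample values of Aldoa and Eno1 overlapped in both groups, as did those of Pkm and Aldoa in the cKO group, whereas Gapdh exceeded Pkm in every sample. The entry and control steps sat lower, at 42.7 CPM per kilobase for Pfkl, 29.0 for Hk1 and 22.5 for Slc2a1. At the bottom were Hk3 (0.132) and Hkdc1 (0.0329).

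**Figure D2:**
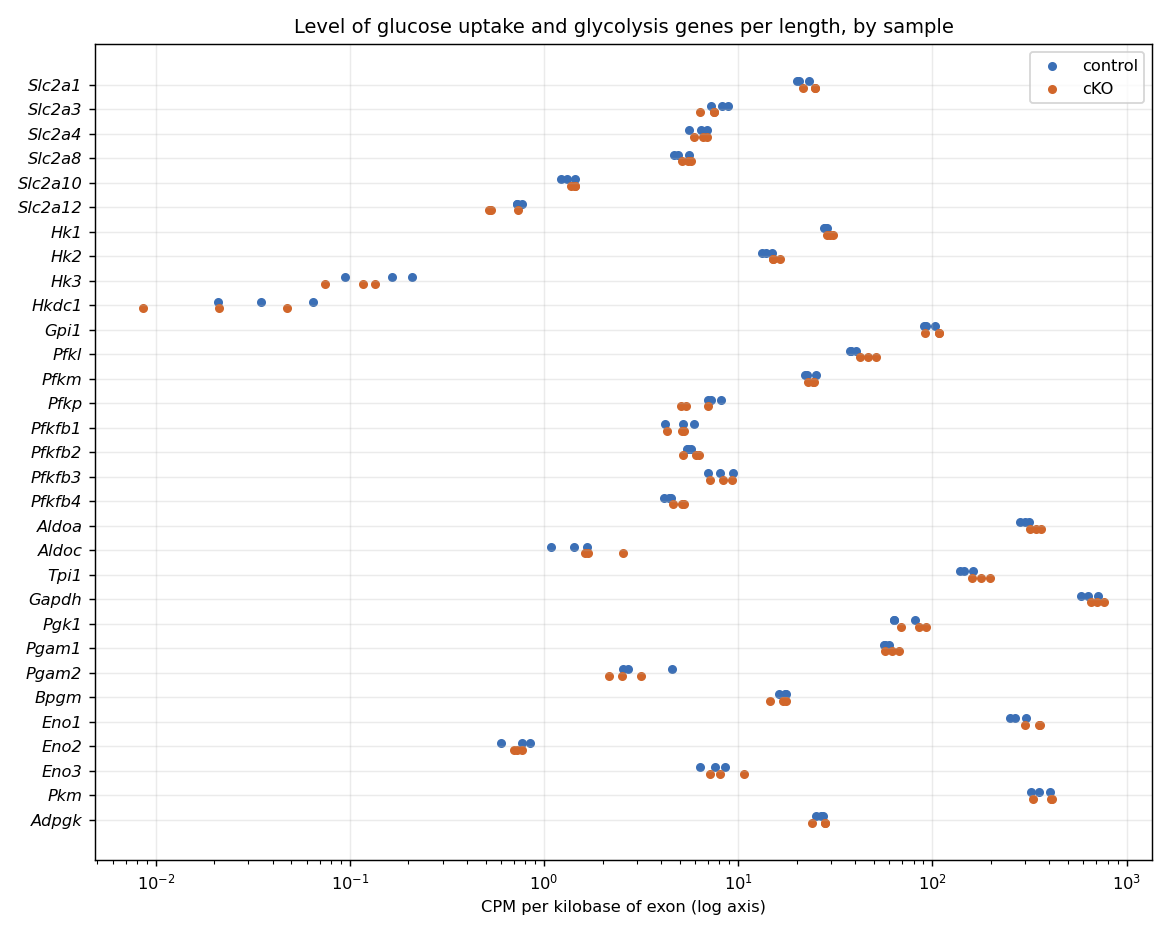
Level of each of the 31 genes in CPM per kilobase of exon (log axis), with 1 point per sample, control in blue and cKO in orange. The levels run from Hkdc1, averaging 0.0329, to Gapdh, averaging 675, and the 2 groups lie close together at most genes.

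Upstream sequence is shown for 3 genes, Pfkl and Eno1 because DESeq2 called them and Pfkp because it was the single gene at an unadjusted p under 0.05 with a lower level. Each run holds the 250 bases before the RefSeq transcription start in GRCm38.p6, 5′ to 3′ on the gene's strand. Hypoxia response elements, through which low oxygen acts on many glycolytic genes, have as core the pentamer ACGTG or, with another first letter, the pentamer GCGTG. Capitals mark either core on either strand. In the 3 windows every mark is GCGTG or, on the other strand, its reverse complement CACGC. Pfkl lies at chr10:78009808-78010057 on the minus strand, Pfkp at chr13:6648772-6649021 on the minus strand and Eno1 at chr4:150236947-150237196 on the plus strand.

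Pfkl: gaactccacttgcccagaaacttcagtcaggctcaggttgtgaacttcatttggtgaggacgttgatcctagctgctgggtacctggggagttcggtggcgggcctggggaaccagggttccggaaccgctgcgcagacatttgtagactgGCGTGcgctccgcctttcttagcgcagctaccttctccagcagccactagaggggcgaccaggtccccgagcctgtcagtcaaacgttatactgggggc

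Pfkp: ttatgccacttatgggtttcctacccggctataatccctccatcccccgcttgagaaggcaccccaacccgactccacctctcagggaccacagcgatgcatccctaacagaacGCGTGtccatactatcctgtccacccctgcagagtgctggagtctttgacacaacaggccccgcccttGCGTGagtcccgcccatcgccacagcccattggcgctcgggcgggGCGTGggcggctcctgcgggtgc

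Eno1: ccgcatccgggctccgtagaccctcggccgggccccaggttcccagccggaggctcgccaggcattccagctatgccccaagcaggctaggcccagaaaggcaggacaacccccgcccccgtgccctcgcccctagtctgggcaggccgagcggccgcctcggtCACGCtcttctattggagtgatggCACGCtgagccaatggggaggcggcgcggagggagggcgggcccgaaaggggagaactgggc

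The pentamer GCGTG occurred 1 time before Pfkl, 3 times before Pfkp and 2 times before Eno1, on either strand. Over all 32851 RefSeq windows of this length, 28.2% held this pentamer, 16.6% held the one that starts with A and 38.6% held either. Of the 29 genes with a RefSeq window, the counts were 12, 8 and 17 in the same order. The 2 pentamers were counted separately and cannot share a start. The palindromic E-box CACGTG, which holds the pentamer that starts with A on both strands, was in 6.02% of all windows and in 1 of the 29, that of Pfkm. A match is only a run of letters, and it was present both before genes with a higher and before a gene with a lower level in cKO testes.

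Glucose uptake came first. Slc2a1 (GLUT1), the basal glucose transporter of most embryonic cells, was the leading transporter per length and was at 75.4, 65.7 and 66.9 CPM in control replicates 1 to 3 and at 81.1, 70.1 and 81.5 CPM in the cKO replicates. cKO replicate 2 lay within the control range, and the log2 fold change was 0.16 (SE 0.081, edgeR p 0.0717, FDR 0.470). Slc2a3 (GLUT3), a high-affinity transporter known from neurons and early embryos, was at 28.7, 35.1 and 32.5 CPM in control and 29.7, 25.2 and 29.6 CPM in cKO testes. 2 of the 3 cKO values lay within the control range, and the log2 value was -0.19 (SE 0.095, edgeR p 0.0697, FDR 0.468). The other 4 transporters did not reach an unadjusted p under 0.05 either. Slc2a4 (GLUT4), the insulin-regulated transporter, was at 14.2 to 17.5 CPM in control and 14.9 to 17.5 CPM in cKO testes (log2 fold change 0.04). Slc2a8, an intracellular transporter, and Slc2a10 gave log2 fold changes of 0.11 and 0.10. Slc2a12 gave -0.31 (SE 0.196, edgeR p 0.142), with cKO replicates 2 and 3 at 2.17 and 2.21 CPM below all controls (3.02 to 3.19 CPM) and cKO replicate 1 at 3.04 CPM among them.

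The make-up of the transporter pool was described by each gene's share of the summed CPM per kilobase of the 6 transporters. Slc2a1 held 49.6% ± 2.06 (SD, n = 3) in control and 53.0% ± 1.86 (SD, n = 3) in cKO testes, and the groups overlapped (exact two-sided permutation test, p 0.2). Slc2a3 held 19.0% ± 2.49 and 15.9% ± 0.688 (SD, n = 3 each, exact permutation p 0.2). Slc2a12, the smallest share, held 1.73% ± 0.0995 and 1.32% ± 0.246 (SD, n = 3 each) without overlap (exact permutation p 0.1). The share of Slc2a12 was chosen for report after its values were seen. The sum over the 6 transporters was 1.05 times the control in cKO testes. For single values like these, 3 against 3 samples cannot give an exact p below 0.1, and adjusted over the leading isoforms of the 7 multi-gene steps no p was below 0.7.

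Hexokinases phosphorylate glucose. Hk1, the isoform of most tissues, was at 132, 129 and 129 CPM in control and 138, 133 and 143 CPM in cKO testes, so that all cKO values lay above all control values by a narrow margin (log2 fold change 0.09, SE 0.050, edgeR p 0.112). Hk2, the inducible isoform of muscle and proliferating cells, was at 76.6, 72.8 and 82.3 CPM in control and 90.5, 82.8 and 83.7 CPM in cKO testes. Its groups did not overlap either, and its log2 fold change was 0.15 (SE 0.067, edgeR p 0.0527, FDR 0.441). Hk3, an isoform of blood cells, rested on 9 to 31 counts per sample and gave -0.51 (SE 0.420, edgeR p 0.253), which became -0.16 on leaving out control replicate 2, -0.30 on leaving out cKO replicate 2 and -0.82 on leaving out control replicate 3. Hkdc1 was below the filter, with 2, 10 and 3 counts in control and 3, 6 and 1 in cKO testes. The sum of the 4 hexokinases per length was 42.7, 41.2 and 43.0 CPM per kilobase in control and 46.4, 44.0 and 46.2 in cKO testes, a ratio of 1.08 without overlap. Their proportions stayed within the replicate spread, with Hk1 at 66.4% ± 1.25 and 65.6% ± 1.30 (SD, n = 3 each, exact permutation p 0.5) and Hk2 at 33.1% and 34.1%. Adpgk, which phosphorylates glucose with ADP in place of ATP, was at 62.7 to 67.8 CPM in control and 59.7 to 69.9 CPM in cKO testes (log2 fold change 0.01).

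Gpi1 converts glucose 6-phosphate, the point where glycogen-derived sugar joins, to fructose 6-phosphate. It was at 261, 297 and 267 CPM in control and 311, 266 and 310 CPM in cKO testes. cKO replicate 2 lay among the controls and the other two above them (log2 fold change 0.10, SE 0.076, edgeR p 0.211).

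Phosphofructokinase, the committing step, was the step at which isoforms differed in direction, with one above and one below control at an unadjusted p under 0.05. Pfkl, the liver-type gene (chromosome 10, 77986947 to 78009796, minus strand), was at 142, 150 and 140 CPM in control and 175, 158 and 190 CPM in cKO testes. The groups did not overlap. Its log2 fold change was 0.27 (SE 0.070, edgeR p 0.00334, FDR 0.377), a difference of 20.9% with a 95% interval from 8.38% to 34.9%, and it ranked 115th of 15577 genes by p. Without cKO replicate 3 the log2 fold change was 0.21. Pfkm, the muscle-type gene, was at 75.9, 66.1 and 68.1 CPM in control and 73.2, 68.5 and 73.6 CPM in cKO testes, with all cKO values inside the control range (log2 fold change 0.04, SE 0.070, edgeR p 0.595). Pfkp, the platelet-type gene (chromosome 13, 6579874 to 6648771, minus strand), was at 29.9, 35.2 and 31.01 CPM in control and 30.1, 21.8 and 23.2 CPM in cKO testes. cKO replicate 1 was level with control replicate 1, and the other two cKO samples were below every control. Its log2 fold change was -0.36 (SE 0.122, edgeR p 0.0162, FDR 0.380, DESeq2 adjusted p 0.185), and its p moved with single samples. Whichever sample was left out, the log2 fold change lay between -0.51 and -0.27. The unadjusted p of Pfkp was above 0.05 without control replicate 2 (-0.29, edgeR p 0.0660), without cKO replicate 2 (-0.27, edgeR p 0.0547) and without cKO replicate 3 (-0.30, edgeR p 0.0532). Without cKO replicate 1 Pfkp gave -0.51 (edgeR p 0.000409, DESeq2 adjusted p 0.00306).

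As shares of the phosphofructokinase level per length, Pfkl made up 54.2%, 57.1% and 55.7% in control and 59.9%, 60.3% and 63.0% in cKO testes, means of 55.7% ± 1.45 and 61.1% ± 1.70 (SD, n = 3 each). Pfkp made up 9.89%, 11.6% and 10.7% in control and 8.96%, 7.21% and 6.66% in cKO testes. Neither share overlapped between the groups, each at an exact permutation p of 0.1, the smallest that the design allows; the share of Pfkp was chosen for report after its values were seen. Pfkm held 33.6% ± 2.31 and 31.3% ± 1.08 (SD, n = 3 each, exact permutation p 0.2), with overlap. The 3 genes summed to 69.5 ± 1.65 CPM per kilobase in control and 76.5 ± 5.50 in cKO testes (SD, n = 3 each), and cKO replicate 2, at 70.4, lay among the controls. In that sample, Pfkl nonetheless held more and Pfkp less of the sum than in any control.

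**Figure D3:**
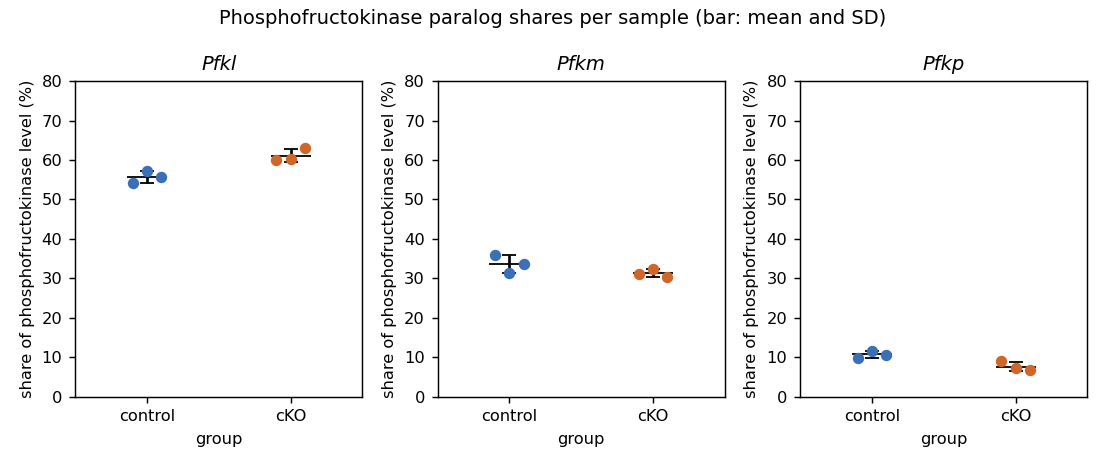
Share of the summed phosphofructokinase level (CPM per kilobase) held by Pfkl, Pfkm and Pfkp in each sample, with the group mean as a horizontal line and the SD as an error bar (n = 3 per group). The cKO points lie above the control points for Pfkl, at 59.9% to 63.0% against 54.2% to 57.1%, and below them for Pfkp.

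The level of Pfkp was set beside that of the germ cell markers, since the cKO deletion does not act in germ cells and the markers differed between the groups. The mean log2 difference of the 16 germ cell markers from the control mean was -0.42, 0.18 and 0.24 in control and -0.40, -1.28 and -0.74 in cKO testes. Their summed level was 622, 940 and 1002 CPM in control and 656, 323 and 488 CPM in cKO testes, and no marker was at 0 in any sample. The samples lowest in Pfkp, cKO replicates 2 and 3, were also lowest in germ cell markers, and the sample lowest in Slc2a3, cKO replicate 2, was the lowest of all. The other samples did not all keep that order for Slc2a3. It was at 28.7 CPM in control replicate 1 and 29.6 CPM in cKO replicate 3, where the markers were at -0.42 and -0.74. Pfkl was highest in cKO replicate 3 and above every control in all 3 cKO samples. The part of germ cells in the result for Pfkp or Slc2a3 was not tested.

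**Figure D4:**
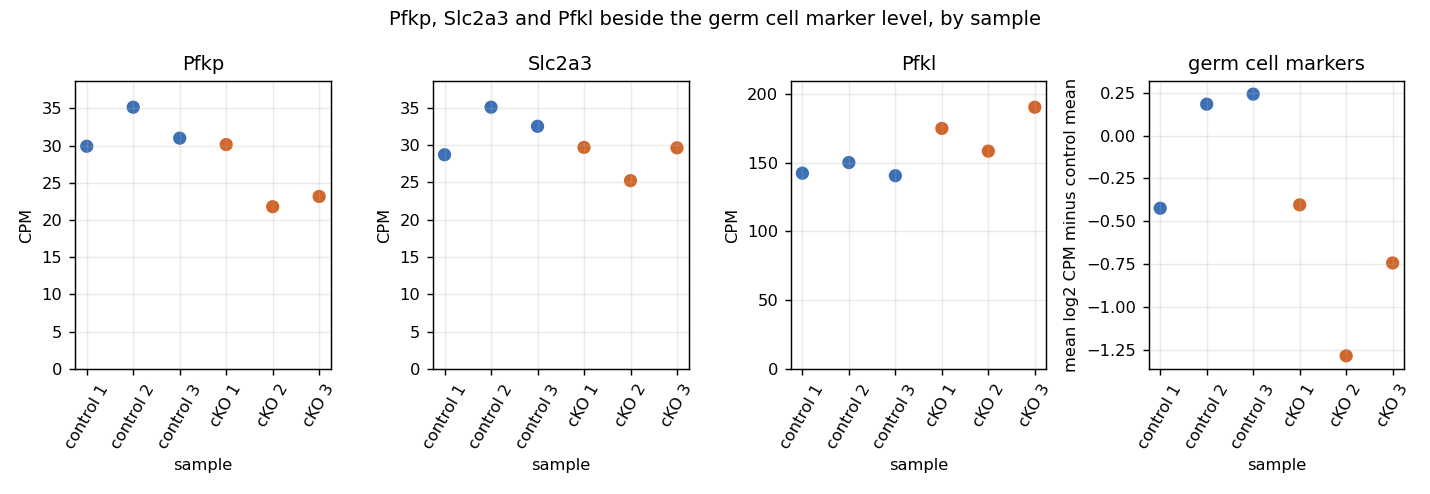
CPM of Pfkp, Slc2a3 and Pfkl and the mean log2 difference of 16 germ cell markers from the control mean, by sample, control in blue and cKO in orange. Pfkp and the markers are both lowest in cKO replicates 2 and 3, where the marker level is -1.28 and -0.74, whereas Pfkl is higher in all cKO samples than in the controls.

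The Pfkfb enzymes set the level of fructose 2,6-bisphosphate, a strong activator of phosphofructokinase. Pfkfb4 was at 14.5, 15.3 and 15.6 CPM in control and 16.03, 17.9 and 18.3 CPM in cKO testes, without overlap (log2 fold change 0.20, SE 0.088, edgeR p 0.0528, FDR 0.441). Without cKO replicate 3, its highest sample, Pfkfb4 gave 0.16 (edgeR p 0.166). Pfkfb3, whose enzyme mostly favours synthesis of the activator, was the leading isoform per length and was at 38.0 to 50.9 CPM in control and 38.8 to 50.7 CPM in cKO testes (log2 fold change 0.02). Pfkfb1 and Pfkfb2, known from liver and heart, gave -0.07 and 0.08. The shares of Pfkfb3, 35.1% ± 1.84 in control and 34.4% ± 2.65 in cKO testes, did not differ beyond their spread (SD, n = 3 each, exact permutation p 0.9).

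Below these control points, aldolase splits fructose 1,6-bisphosphate into triose phosphates. Aldoa (chromosome 7, 126795234 to 126800447, minus strand) was at 546, 571 and 514 CPM in control and 626, 580 and 663 CPM in cKO testes. All cKO values exceeded all control values, with cKO replicate 2 close to control replicate 2, and the log2 fold change was 0.20 (SE 0.066, edgeR p 0.0146, FDR 0.377). Aldoc, the brain-type isoform, was at 4.93, 4.23 and 3.25 CPM in control and 5.01, 4.84 and 7.56 CPM in cKO testes, which gave 0.51 on the log2 scale (SE 0.224, edgeR p 0.0490). The highest value was that of cKO replicate 3, and without this sample Aldoc gave 0.27 (edgeR p 0.209) and Aldoa 0.15 (edgeR p 0.0624). Aldoa made up 99.5% of the aldolase level in control and 99.4% in cKO testes, so Aldoc carried little of it.

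Tpi1, which interconverts the triose phosphates (chromosome 6, 124810592 to 124814296, minus strand), was at 234, 262 and 223 CPM in control and 288, 258 and 319 CPM in cKO testes. cKO replicate 2 fell just under control replicate 2 and the other two lay above all controls. The log2 fold change was 0.27 (SE 0.086, edgeR p 0.0116, FDR 0.377) and 0.19 without cKO replicate 3. Gapdh, the dehydrogenase that yields NADH, was at 942, 1063 and 876 CPM in control and 1053, 976 and 1150 CPM in cKO testes, with overlap between the groups (log2 fold change 0.14, SE 0.084, edgeR p 0.126). Pgk1, the first ATP-yielding enzyme, was at 116, 148 and 116 CPM in control and 156, 126 and 170 CPM in cKO testes. cKO replicate 2 lay between the controls here too (log2 fold change 0.25, SE 0.122, edgeR p 0.0719). The highest value of Pgk1 was that of cKO replicate 3. With a single sample left out, its log2 fold change lay between 0.15 and 0.37.

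Pgam1, the main phosphoglycerate mutase, was at 99.8, 107 and 101 CPM in control and 120, 101 and 110 CPM in cKO testes (log2 fold change 0.11, SE 0.071, edgeR p 0.160). The muscle isoform Pgam2 rested on 60 to 101 counts per sample and gave -0.28 (SE 0.265), which became -0.01 on leaving out control replicate 1, -0.16 on leaving out cKO replicate 3 and -0.44 on leaving out control replicate 3. Pgam1 held 94.6% and 95.9% of the mutase level in control and cKO testes (exact permutation p 0.4). Bpgm, which makes the haemoglobin effector 2,3-bisphosphoglycerate in red blood cells, was at 38.9, 38.5 and 36.2 CPM in control and 32.3, 39.0 and 37.5 CPM in cKO testes (log2 fold change -0.06). The cKO sample lowest in Bpgm, replicate 1, was also the lowest in the 11 erythroid markers tested, at a mean log2 difference of -0.29, where the other 5 samples lay between -0.10 and 0.17. The part of red blood cells in the values of Bpgm was not tested.

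Eno1, the ubiquitous enolase (chromosome 4, 150237197 to 150248873, plus strand), was at 507, 613 and 539 CPM in control and 728, 610 and 720 CPM in cKO testes. cKO replicates 1 and 3 lay above all controls, and cKO replicate 2 lay just below control replicate 2. The log2 fold change was 0.31 (SE 0.088, edgeR p 0.00616, FDR 0.377), the largest of the 31 genes among those above 100 CPM, and 0.28 without cKO replicate 3. Eno2, the neuronal isoform, was at 1.68 to 2.35 CPM in control and 1.97 to 2.14 CPM in cKO testes (log2 fold change -0.01). Eno3, the muscle isoform, gave 0.22 (SE 0.165, edgeR p 0.219), which became 0.03 on leaving out cKO replicate 1, 0.10 on leaving out control replicate 3 and 0.34 on leaving out cKO replicate 2. Eno1 held 97.1% ± 0.557 of the enolase level in control and 97.3% ± 0.358 in cKO testes (SD, n = 3 each, exact permutation p 0.6). Reads of Eno1, Gapdh, Pgk1, Tpi1 and other abundant glycolytic genes can also match processed copies elsewhere in the genome, among them Eno1b for Eno1, so their absolute levels are less certain than those of the transporters.

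Pkm, the pyruvate kinase gene, was at 842, 1051 and 917 CPM in control and 1059, 858 and 1074 CPM in cKO testes, with overlap (log2 fold change 0.09, SE 0.103, edgeR p 0.407). It encodes the M1 and M2 forms by alternative splicing, which counts per gene do not separate.

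**Figure D5:**
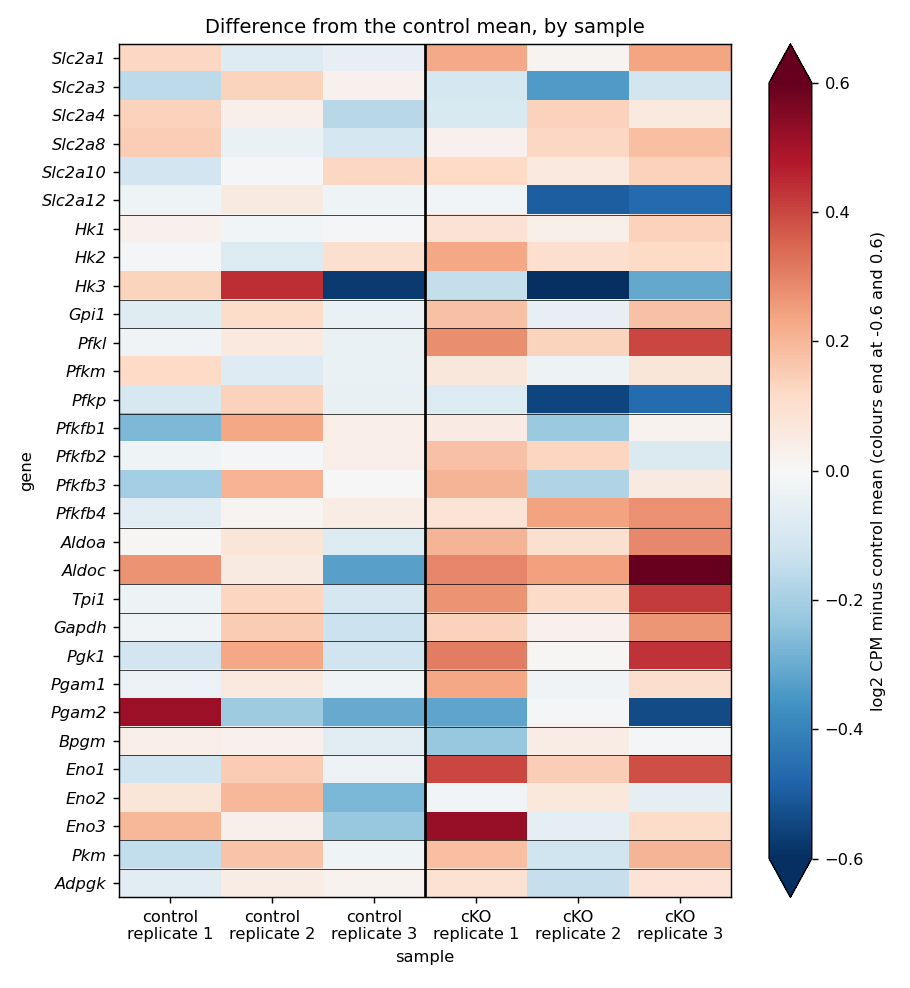
Difference of log2 CPM from the control mean for the 30 tested genes (rows, from uptake to pyruvate kinase, with Adpgk last) in each of the 6 samples (columns, with a line between control and cKO). Red is above and blue below the control mean, and the colours end at -0.6 and 0.6. Among the cKO columns, replicate 2 is the palest for most enzymes of the lower pathway and the bluest for Slc2a3 and Pfkp.

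The 8 most abundant enzymes shared an order of samples. Control replicate 2 was the highest control and cKO replicate 2 the lowest cKO sample for Gpi1, Aldoa, Tpi1, Gapdh, Pgk1, Pgam1, Eno1 and Pkm alike. Less abundant genes of the lower pathway did not all keep this order. Control replicate 1 was the highest control for Aldoc, Pgam2, Bpgm and Eno3, and cKO replicate 2 was the highest cKO sample for Pgam2, Bpgm and Eno2. Over the 30 tested genes, cKO replicate 2 was the lowest cKO sample for 23, against 40.7% of all genes, and control replicate 2 was the highest control for 17, against 32.0% of all genes. Markers of the mesonephros, the tissue next to the gonad, had the same highest control and the same lowest cKO sample in their mean level. Their mean log2 difference was -0.04, 0.12 and -0.08 in control and 0.51, 0.09 and 0.96 in cKO testes, and their summed level was 109, 120 and 107 CPM in control and 125, 117 and 183 CPM in cKO testes. Of the single markers tested, only Calb1 had both features of this order. Control replicate 2 was the lowest control for Pax8 (8.35 CPM) and Gata3 (0.905 CPM). Between cKO replicates 1 and 2, Lhx1 went from 11.9 to 3.81 CPM. Of the 6 markers tested, 5 had a value above 0, and Lhx1 gave -0.78 (SE 0.361, edgeR p 0.0583). Higher at an unadjusted p under 0.05 and without overlap were 4 (Calb1, Pax2, Pax8 and Emx2), and 0 were called by edgeR or DESeq2. Over all genes, 5.56% were higher at that p and 8.42% were higher without overlap. All 4 were highest in cKO replicate 3. Calb1, Pax8 and Emx2 were at 11.2, 16.4 and 143 CPM there, against at most 2.77, 11.7 and 96.3 CPM in the other cKO samples. Calb1, the gene of lowest p, gave 2.14 (SE 0.640, edgeR p 0.00806). The part of mesonephric tissue in the glycolytic values was not tested.

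The count of genes at an unadjusted p under 0.05 moved with single samples. It went from 5 higher and 1 lower to 10 higher and 0 lower without cKO replicate 2 (Gapdh, Gpi1, Pgam1, Pgk1 and Slc2a1 joining, Pfkp leaving), where all genes gave 5.21% higher and 3.59% lower. Without cKO replicate 3 it was 3 higher and 0 lower, against 3.54% and 4.29% of all genes. Without control replicate 2 it was 6 higher and 0 lower, against 3.74% and 3.27% of all genes. Pfkl, Eno1 and Tpi1 were among them whichever single sample was left out. DESeq2 called 0 to 3 of the genes when a sample was left out. It called 0 without cKO replicate 3, where 22 of 14902 genes were called, and 0 without control replicate 1, where 317 of 14210 were. Without control replicate 3 it also called 0, but only 9 of the genes (1983 of all genes) had an adjusted p there.

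Genes that border the pathway were taken from lists of its other isoforms, the fate of pyruvate, gluconeogenesis and its regulators. Of 8 further sugar transporters of the Slc2a and Slc5a families, 3 passed the filter and were tested (Slc2a5, Slc2a9 and Slc2a13). Their log2 fold changes were 0.09, 0.30 and 0.05, with 0 at an unadjusted p under 0.05. The one gene of the isoform list that reached it was Pklr, the liver and red blood cell pyruvate kinase, at 0.677, 1.15 and 1.61 CPM in control and 2.47, 3.73 and 1.24 CPM in cKO testes (log2 fold change 1.05, SE 0.410, edgeR p 0.0299). All its values were far below those of Pkm.

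Among the 15 genes of pyruvate and lactate handling, all of them tested, 11 lay above and 4 below 0, and 0 were called by edgeR and 1 by DESeq2. At an unadjusted edgeR p under 0.05 were 2 higher and 2 lower, against 5.56% higher and 5.80% lower over all genes. Ldha, whose enzyme reduces pyruvate to lactate, was at 271, 317 and 248 CPM in control and 402, 326 and 418 CPM in cKO testes. The groups did not overlap, although cKO replicate 2 was only just above control replicate 2, the sample order seen in the most abundant glycolytic enzymes. Its log2 fold change was 0.45 (SE 0.109, edgeR p 0.00222, FDR 0.377, DESeq2 adjusted p 0.00494). Slc16a3 (MCT4), a lactate exporter, was at 41.7, 40.4 and 38.8 CPM in control and 46.8, 45.9 and 48.6 CPM in cKO testes, also without overlap (log2 fold change 0.22, SE 0.062, edgeR p 0.00510, FDR 0.377). Ldha and Slc16a3 were both highest in cKO replicate 3, and their values without that sample are not given here. Pdhb, a subunit of the pyruvate dehydrogenase complex that feeds pyruvate to mitochondria, gave -0.18 (SE 0.068, edgeR p 0.0269). Ldhc, the lactate dehydrogenase gene of germ cells, was at 0.360 CPM on average in control and 0.111 CPM in cKO testes (log2 fold change -1.58, edgeR p 0.0139), levels too low for more than a mention.

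Of 7 gluconeogenesis genes, 5 were tested, 4 with a value above 0 and 1 below. Slc37a4, the transporter of glucose 6-phosphate into the endoplasmic reticulum, gave 0.27 (SE 0.111, edgeR p 0.0352), and Fbp1, which opposes phosphofructokinase, gave -0.59 (SE 0.262, edgeR p 0.0495) at a mean of 0.659 CPM in cKO testes. Of 20 regulators, 19 were tested, with 9 above and 10 below 0 and a median of -0.01. At an unadjusted edgeR p under 0.05 were 1 higher and 4 lower, against 5.56% higher and 5.80% lower over all genes. The groups did not overlap for 7 of the 19, 4 of them higher, against 15.6% of all genes in either direction (8.42% higher). Txnip and Arrdc4, arrestin-like genes that are induced by glucose phosphates and restrain glucose uptake, were both lower in cKO testes without overlap. Arrdc4 was at 23.3, 28.02 and 29.04 CPM in control and 22.5, 22.02 and 22.2 CPM in cKO testes (log2 fold change -0.28, SE 0.089, edgeR p 0.0122), and Txnip gave -0.15 (SE 0.063, edgeR p 0.0405). Tigar, a fructose 2,6-bisphosphatase, gave -0.40 (SE 0.140, edgeR p 0.0181), and the mitochondrial transcription factor gene Tfam gave -0.14 (edgeR p 0.0462). Myc, a transcription factor that acts on many glycolytic genes, gave 0.26 (SE 0.10, edgeR p 0.0290). None of the tested genes in these lists was called by edgeR, and Ldha was the only one called by DESeq2.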

How the data were processed

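RNA-seq of 3 control and 3 Ppp1r3c cKO testis samples was analysed from 1 table of raw counts per gene, which the authors deposited without normalization. Per the labels and the study's methods, the libraries were stranded mRNA preparations, and the authors aligned read pairs to mm10 with STAR (version 2.5) and obtained strand-specific counts per RefSeq gene with featureCounts (Subread 1.5.0-p1). The titles of the samples gave the group and the replicate number. All per-sample columns entered (0 unused).

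Counts were filtered with filterByExpr (minimum count 10), normalized by TMM, and tested on all 6 samples with the quasi-likelihood F-test of edgeR (version 4.0.16) in R 4.3.3, with cKO against control as the single term. Benjamini-Hochberg adjustment ran over all 15577 genes (FDR), and a gene below 0.05 is termed called. SEs of log2 fold changes came from the F statistic and 95% intervals from its degrees of freedom. Exon length was the union of GENCODE M21 exons of the RefSeq-linked transcripts of a gene, and shares of an isoform were computed from CPM per kilobase. Shares were compared by an exact permutation test over samples, for which the smallest two-sided p is 0.1. Promoter windows were those of RefSeq (GRCm38.p6), available here for 29 of the 31 genes. The test was run on simulated counts with known changes before use.

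The genes and lists were chosen with earlier results of these data known. Every member of the list, Ppp1r3c, Xist and Fst are named, and of the lists of bordering and low-oxygen genes those called or at an unadjusted p under 0.05, and the gene of lowest p. Of a marker list, the gene of lowest p is named where a result turns on it. Foxl2, Sox9, Inhbb, Gata4, Amh, Dhh, Dmrt1, Ptgds, Cst9, Aard, Pax2, Pax8, Emx2, Lhx1 and Gata3 were named after their values were seen. The alternatives were DESeq2 (version 1.42.0, which the authors used), limma-voom (version 3.58.1), RLE size factors, no filter, a filter of 1 CPM in 3 samples, the replicate number as a block, libraries thinned to the smallest total, and leaving out each sample. Some genes of the isoform and marker lists are not reported here.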

Additional observations from a re-analysis of the deposited data

How the results depend on the processing

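Of the 30 tested genes, 0 were called by edgeR under each alternative on all 6 samples, by limma-voom and with any sample left out. DESeq2 called 2, and 0 to 3 with a sample left out, namely 1 without control replicate 2 (Eno1), 1 without cKO replicate 1 (Pfkp, lower) and 3 without cKO replicate 2 (Eno1, Pfkl and Tpi1). Among the bordering genes DESeq2 called 1, against 0 by edgeR. The number at an unadjusted p under 0.05 was 6, and 3 to 10 with a sample left out. Same-numbered samples did not resemble each other in their deviations from the group mean (correlations -0.20, -0.27 and -0.13). Deviations of the samples in a group offset each other, so these values cannot tell whether litters or batches were shared. With the replicate block, 4 genes were at an unadjusted p under 0.05 (Eno1, Pfkl, Pfkp and Tpi1), against 6.32% of all genes, and 0 were called. The genes whose sign changed all lay close to 0. In thinned libraries Slc2a4 gave -0.046, Pfkfb1 0.048, Pfkfb3 -0.00064, Eno2 0.039 and Adpgk -0.018, and by limma-voom Pfkfb3 gave -0.0059 and Eno2 0.0080. With a sample left out, the log2 fold change ranged from -0.049 to 0.10 for Slc2a4, -0.011 to 0.097 for Pfkm, -0.18 to 0.041 for Pfkfb1, -0.077 to 0.12 for Pfkfb3, -0.12 to 0.018 for Bpgm, -0.16 to 0.10 for Eno2 and -0.026 to 0.084 for Adpgk. The share of Pfkfb3 moved between -1.86 and 0.74 percentage points of difference and was 0.18 without Pfkfb4, and that of Eno1 between -0.053 and 0.47. Genes under 1 CPM (Hk3, Hkdc1) rested on few counts, and the cause of the shifts was not tested.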

Other observations

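A list of 14 other genes known to be induced by low oxygen, all of them tested, had 9 values above and 5 below 0, a median log2 fold change of 0.13, and 0 called by edgeR or DESeq2. At an unadjusted p under 0.05 were 4, all higher in cKO testes, against 5.56% higher over all genes tested. Vegfa, the vascular growth factor, was at 186, 180 and 158 CPM in control and 197, 188 and 197 CPM in cKO testes (log2 fold change 0.15, SE 0.066, edgeR p 0.0457). P4ha1, a collagen prolyl hydroxylase, and Kdm3a, a histone demethylase, gave 0.19 (edgeR p 0.0347) and 0.20 (edgeR p 0.0368). Kdm3a was at 205 CPM in cKO replicate 3 against 171 and 164 CPM in the other cKO samples and 154 to 162 CPM in control. Adm, the peptide hormone adrenomedullin, gave 1.45 (edgeR p 0.0163), with 9.92 CPM in cKO replicate 3 against 2.72 and 2.56 CPM in the other cKO samples and 1.63 to 2.09 CPM in control. Hif1a, a transcription factor subunit of that response named after its values were seen, was at 343 to 366 CPM in control and 367 to 382 CPM in cKO testes (log2 fold change 0.08, edgeR p 0.131).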
